A study of Mus musculus with 35 samples.

Results

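The rodent SINE families B1, PB1, B2, B3, B4 and ID were followed through mouse zygotes and early 2-cell (2C) embryos, with and without injection of mRNA for the histone H3K4 demethylase KDM5B. Members were taken by name from the table of repeat counts, as every repeat whose name began with B1, PB1, B2, B3, B4, RSINE or ID. The rule found 28 of 18536 repeats. B1 had 10 members, PB1 had 5, B2 had 3, B3 had 2, B4 had 4 and ID had 4. B4 included RSINE1 and the composite element ID_B1, which RepeatMasker places in the B4 family. All 28 members passed the filter on low counts in every comparison, since the lowest count of any member in any sample was 537 (ID2).

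All 35 samples were wild-type C57BL/6NRj embryos, profiled by total RNA-seq with a stranded SMART-Seq kit. The control zygotes (n = 10) were injected with water and the Kdm5b zygotes (n = 10) with Kdm5b-yfp mRNA at about 1150 ng/µl, and both were collected 17 h after ovulation. The control 2C (n = 9) and Kdm5b 2C embryos (n = 6) received the same injections at the 2C stage and were collected 5.5 to 8 h after division. Zygotes for the 2C groups had been frozen and thawed before culture, and a separate day was used for their libraries. Stage therefore cannot be told apart from freezing or from the day of library preparation. Because the control was water, KDM5B activity cannot be told apart from a load of injected mRNA. Most samples were single embryos, and 4 of the 2C samples were pools of 2 or 3 blastomeres from as many embryos (control 2C replicates 7, 8 and 9 and Kdm5b 2C replicate 6). Since these are samples of whole embryos, more RNA per cell and a changed share of RNA cannot be told apart.

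Gene totals ran from 8705584 to 17797581 fragments per sample and repeat totals from 4131188 to 7284584, of which 215852 to 409091 fell on the SINE members. Kdm5b (chr1:134560171-134635285, + strand, GRCm38) took 2.30 to 10.4% of gene fragments in Kdm5b zygotes and 8.27 to 15.8% in Kdm5b 2C embryos, against at most 0.0189% in any control. The pools stood apart in rRNA: a large-subunit rRNA repeat took 17.7 to 18.5% of repeat counts in the 3 control pools and 20.0% in the Kdm5b pool, against 6.88 to 11.8% in single 2C embryos. The 9 markers of the 2C stage summed to 35.3 to 114 TPM (length-corrected transcript level) in zygotes and 258 to 1013 in 2C embryos, and all 9 rose from control zygotes to control 2C embryos. The 12 markers of cumulus cells, which surround the oocyte, summed to at most 52.8 TPM in any sample, and 8 to 10 of them had a median count under 10 in every group.

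SINEs are short interspersed elements that RNA polymerase III transcribes from a promoter inside the element, an A box followed by a B box. B1 and the older PB1 descend from the 7SL RNA of the signal recognition particle, while B2 and ID descend from tRNAs, with the Bc1 gene as a source of ID copies. B4 elements are fusions of an ID and a B1 part. Copies also lie in introns and untranslated regions of genes, so the counts hold both free SINE RNA and SINE sequence carried inside longer transcripts.

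The RNA of Bc1, a source gene of ID copies, is printed to show the promoter boxes that lie inside such an RNA, and the sequence of no SINE copy was used here. It was read from the GENCODE vM21 transcripts, build GRCm38. Bc1 lies at chr7:144914470-144914637 on the + strand. Capitals mark matches to an A box written TNGCNNAGNGG (bases 14 to 24 of Bc1) and to a B box written GTTCGNNNC (bases 58 to 66), searched on both strands.
Bc1: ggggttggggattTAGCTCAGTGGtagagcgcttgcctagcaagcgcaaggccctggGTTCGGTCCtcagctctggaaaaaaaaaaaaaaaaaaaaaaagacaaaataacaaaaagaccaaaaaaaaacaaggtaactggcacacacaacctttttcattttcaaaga
Among 135207 transcripts, 0.0703% held both motifs in their first 168 bases, the length of Bc1.

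In control zygotes the families were present in similar amounts apart from ID. B4 made up 25.6 ± 1.60% of the SINE counts (SD, n = 10), B1 23.4 ± 0.708%, B3 17.2 ± 0.637%, B2 15.1 ± 3.18%, PB1 14.2 ± 0.809% and ID 4.53 ± 0.274%. B2 varied most between zygotes. In control 2C embryos B2 took 20.3 ± 3.99% (n = 9). In Kdm5b 2C embryos it took 25.9 ± 3.45% (n = 6), the highest mean share there, beside 23.5 ± 0.737% for B1. B1 was above B2 in Kdm5b 2C replicates 4 and 6 (B2 to B1 ratios 0.914 and 0.956). These shares count fragments, so longer elements weigh more.

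A pair of denominators was used throughout, because the stage comparison depends on them. The first was the repeat total. The second was the gene total without Kdm5b, which gives counts per 1000000 gene fragments, called gene-scaled CPM. The median gene total was 15395580 in control zygotes and 10723454 in control 2C samples, whereas the median repeat total was 5156303 and 6346329, so the denominators moved in opposite directions. The endogenous retrovirus MERVL, which is switched on at the 2C stage, took 1.28 to 2.97% of repeat counts in zygotes, 5.45 to 22.5% in control 2C embryos and 4.41 to 11.4% in Kdm5b 2C embryos. Its part in the SINE shares was not tested.

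**Figure D1:**
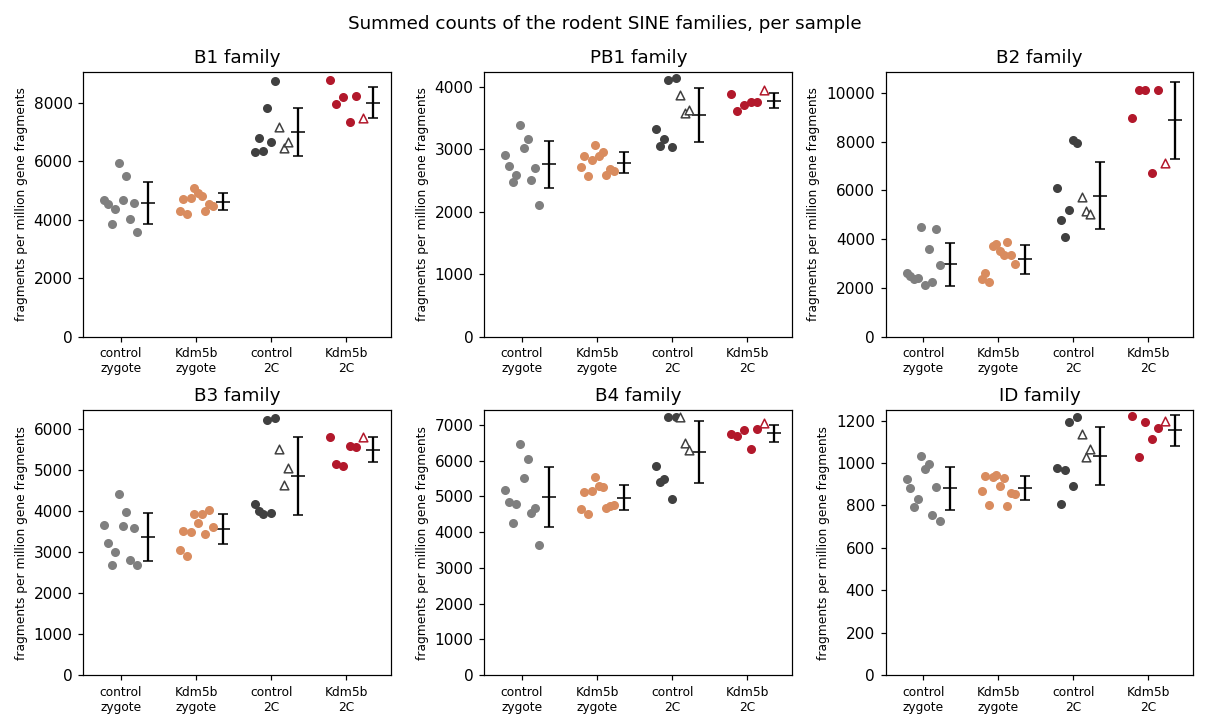
Counts of each SINE family in gene-scaled CPM (y axes, from 0) in each sample of the 4 groups; filled points are single embryos, open triangles are pooled blastomeres, and bars are the mean and SD. The 6 Kdm5b 2C samples have B2 values of 6708 to 10133, all above the 10 Kdm5b zygotes, and 4 of them are above every control 2C sample.

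From control zygotes to control 2C embryos, B2 and the younger B1 subfamilies rose most. B2 summed to 2122, 2555 and 4496 gene-scaled CPM (lowest, median, highest) in the 10 zygotes and to 4079, 5212 and 8066 in the 9 2C samples. Only 1 of the 9 2C samples lay within the range of the zygotes. The ratio of geometric means was 1.97 (two-sided exact permutation test p = 0.000108, adjusted over the 6 families 0.000325). As a percent of the repeat total, B2 was 0.855 ± 0.205 in zygotes and 1.06 ± 0.340 in 2C samples, a difference within the spread (1.22-fold, exact p = 0.122, adjusted p = 0.147).

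B1 summed to 3564, 4563 and 5949 gene-scaled CPM in control zygotes and to 6309, 6658 and 8756 in control 2C embryos. The groups did not overlap, and the ratio was 1.54 (exact p = 2.17e-05, adjusted p = 0.00013). PB1 rose 1.29-fold (adjusted exact p = 0.000893), B3 1.44-fold (adjusted exact p = 0.000893), B4 1.26-fold (adjusted exact p = 0.00752) and ID 1.17-fold (adjusted exact p = 0.0169). On the repeat total, which lowers the change of every family by the same amount on the log2 scale, PB1 fell to 0.795 of its zygote share (adjusted exact p = 0.00119), B4 to 0.775 (adjusted exact p = 0.00119) and ID to 0.722 (adjusted exact p = 0.000325), while B1 and B3 did not pass the test (adjusted exact p = 0.314 and 0.0997).

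For all SINE members together the denominator decided the direction. Their sum was 19538 ± 3145 gene-scaled CPM in control zygotes and 28453 ± 3619 in control 2C embryos (1.46-fold, exact p = 8.66e-05), and every 2C sample was above the zygote mean. Of the repeat total they took 5.65 ± 0.594% and 5.12 ± 0.726% (0.903-fold, exact p = 0.0855). The sum therefore rose against the gene total, and its share of the plain repeat total did not. Without control zygote replicate 8 or control 2C replicate 1, the lower share of the repeat total passed the test (log2 difference -0.17, exact p = 0.0484, and -0.19, exact p = 0.0197).

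Single members were tested with edgeR's quasi-likelihood test on all repeats, first with TMM factors from the repeats and then with factors from the genes. With repeat factors, 12 of the 28 members were higher in control 2C embryos than in control zygotes and 0 lower at a Benjamini-Hochberg adjusted p under 0.05. Of all 2635 repeats tested, 12.6% were higher and 12.9% lower. The median log2 fold change was 0.20 over the members and 0.06 over all repeats. With gene factors all 28 members were higher, against 32.5% of all repeats higher and 6.79% lower, and the medians were 0.51 and 0.36. TMM factors do not equal plain repeat totals here: with plain totals 1 member was higher and 16 lower.

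The 12 members called with repeat factors were all 3 of B2, 6 of 10 in B1, 2 of 5 in PB1 and 1 of 2 in B3, and 0 of 4 in both B4 and ID. The 6 largest changes belonged to B1_Mm, B1_Mus1, B1_Mus2 and the 3 B2 members. B1_Mm had 184, 220 and 337 gene-scaled CPM in control zygotes and 380, 481 and 639 in control 2C embryos, with no overlap (log2 fold change 0.92, SE 0.12, edgeR adjusted p = 4.39e-06). B1_Mus1, the most abundant B1 member, went from 589, 715 and 997 to 1133, 1334 and 1891, again with no overlap (log2 fold change 0.71, SE 0.09, edgeR adjusted p = 9.05e-07). B1_Mus2 changed by a log2 fold of 0.65 (SE 0.10, edgeR adjusted p = 1.70e-05).

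B2_Mm1a, the most abundant B2 member, had 786, 1042 and 1888 gene-scaled CPM in control zygotes and 1595, 2154 and 3643 in control 2C embryos (log2 fold change 0.84, SE 0.16, edgeR adjusted p = 0.000358). In counts scaled with repeat factors, 5 of the 9 2C samples were above the highest zygote. B2_Mm2 and B2_Mm1t changed by log2 folds of 0.72 (SE 0.12) and 0.71 (SE 0.16). These values are on the repeat scale, and on the gene scale each was larger, at 1.13 for B2_Mm1a, 1.00 for B2_Mm2 and 1.00 for B2_Mm1t.

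The other B1 members differed by log2 folds of 0.03 (B1_Mur3) to 0.34 (B1_Mur1) on the repeat scale. The leading members of the remaining families changed less than B2. B3 went from 1938, 2528 and 3237 gene-scaled CPM to 2943, 3367 and 4934 (log2 fold change 0.35, SE 0.08, edgeR adjusted p = 0.00215 with repeat factors). PB1D10 went from 729, 982 and 1261 to 1039, 1263 and 1475, and ID_B1, the fusion that leads B4, from 1484, 1865 and 2343 to 1927, 2408 and 2798. Neither passed the test with repeat factors (edgeR adjusted p = 0.228 and 0.303). ID4 had 362, 408 and 474 in zygotes and 331, 469 and 529 in 2C embryos, with a log2 fold change of -0.07 with repeat factors (SE 0.07, edgeR adjusted p = 0.446) and 0.23 with gene factors (SE 0.08, edgeR adjusted p = 0.0282).

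**Figure D2:**
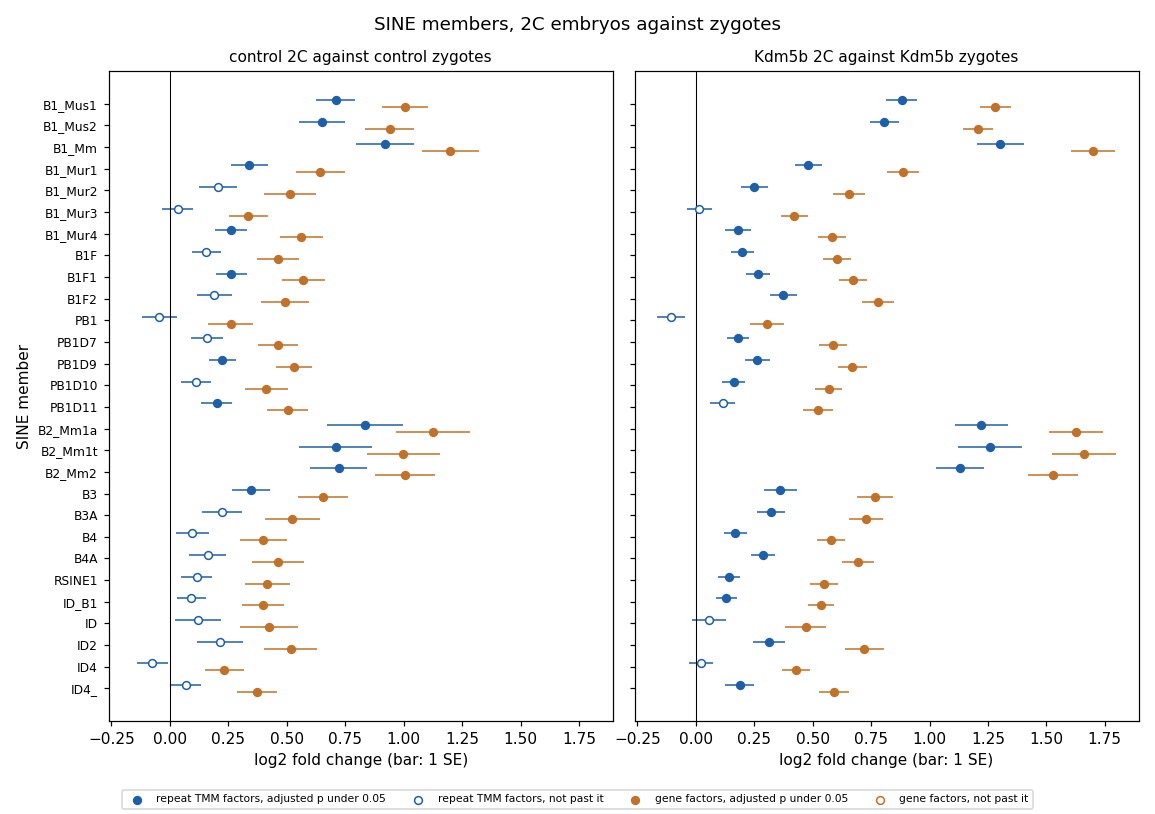
Log2 fold change of each of the 28 SINE members from zygote to 2C (x axis; bars are 1 SE; edgeR) in control embryos on the left and Kdm5b embryos on the right, with repeat factors in blue and gene factors in orange; filled points have an adjusted p under 0.05. The 3 B2 members, B1_Mm, B1_Mus1 and B1_Mus2 sit to the right of the other 22 in both panels, and gene factors move every member to the right.

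The same stage comparison among Kdm5b-injected embryos gave larger values for B2. B2 summed to 2231, 3346 and 3878 gene-scaled CPM in the 10 Kdm5b zygotes and to 6708, 9552 and 10133 in the 6 Kdm5b 2C samples, a ratio of 2.80 with no overlap. The exact p of 0.000125 is the smallest that 6 against 10 samples can give. Of the repeat total, B2 went from 0.897 ± 0.166% to 1.67 ± 0.428% (1.83-fold, exact p = 0.000375, adjusted p = 0.00225), so that B2 rose on both denominators. The other families rose 1.31-fold (ID) to 1.73-fold (B1) on the gene scale. On the repeat total ID fell to 0.856 (adjusted exact p = 0.0292) and B1, PB1, B3 and B4 did not pass the test after adjustment. The sum of all members was 1.12-fold higher on the repeat total (exact p = 0.0847), and it passed without Kdm5b 2C replicate 6, the pool (log2 difference 0.23, exact p = 0.0103).

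With repeat factors 23 of the 28 members were higher in Kdm5b 2C embryos than in Kdm5b zygotes and 0 lower, against 20.1% of all 2740 repeats higher and 20.9% lower. With gene factors all 28 were higher, against 45.4% higher and 10.8% lower. The median over the members was 0.26 with repeat factors and 0.66 with gene factors, and over all repeats 0.04 and 0.45. B1_Mm again led (log2 fold change 1.30, SE 0.10, repeat factors), followed by B2_Mm1t (1.26, SE 0.14), B2_Mm1a (1.22, SE 0.11) and B2_Mm2 (1.13, SE 0.10), each with an edgeR adjusted p of at most 1.04e-07. The 5 members not called were B1_Mur3, PB1, PB1D11, ID and ID4.

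Ratios of families within a sample do not depend on any denominator. From control zygotes to control 2C embryos, B2 to B1 went from 0.649 ± 0.156 to 0.829 ± 0.178 (1.28-fold, exact p = 0.0218, adjusted over the 5 ratios 0.0273). B4 to B1 went the other way, from 1.09 ± 0.0478 to 0.894 ± 0.0939, and ID to B1 from 0.194 ± 0.0109 to 0.148 ± 0.0142. In both of these all 9 2C samples lay below all 10 zygotes, and the exact p of 1.08e-05 is the smallest that these sample numbers can give. The SINE families thus changed unequally between the stages, with B2 ahead of B1 and B1 ahead of B4 and ID.

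MIR, an older family of SINEs shared by mammals and inactive today, gave a second reference. The ratio of all rodent SINE members to MIR rose from 9.13 ± 0.595 to 11.8 ± 0.807 in control embryos, with no overlap (1.29-fold, exact p = 1.08e-05). Against LINE-1, the family of autonomous elements whose proteins move SINEs, the ratio was 1.42 ± 0.0742 in zygotes and 1.41 ± 0.180 in 2C embryos (0.992-fold, exact p = 0.853). In Kdm5b embryos the stage changes had the same direction: B2 to B1 rose 1.61-fold, B4 to B1 fell to 0.786 and ID to B1 to 0.754, and SINE to MIR rose 1.37-fold, each with no overlap (adjusted exact p = 0.000156). SINE to LINE-1 was 1.08-fold higher there and did not pass the test (adjusted exact p = 0.104).

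**Figure D3:**
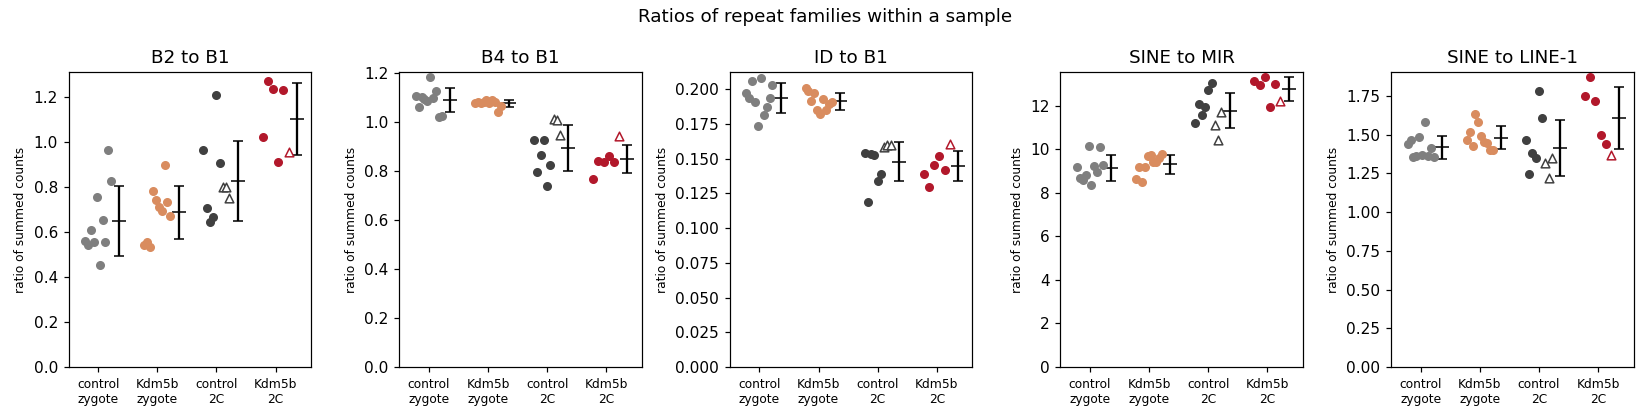
Ratios of summed counts within each sample (y axes, from 0) in the 4 groups; filled points are single embryos, open triangles are pooled blastomeres, and bars are the mean and SD. B4 to B1 and ID to B1 are lower in every 2C sample than in any zygote of the same injection, and B2 to B1 reaches 0.914 to 1.27 in Kdm5b 2C embryos.

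Between Kdm5b and control zygotes no difference in SINEs passed a test. B2 was 3180 ± 600 gene-scaled CPM in Kdm5b zygotes (n = 10) and 2973 ± 888 in control zygotes (1.09-fold, exact p = 0.429), and the sum of all members was 19990 ± 1564 against 19538 ± 3145 (1.03-fold, exact p = 0.581). The 6 families had ratios of 1.01 to 1.09 on the gene scale, all within the spread between zygotes (adjusted exact p = 0.918 for each). Index strips, sets of 8 consecutive index numbers, were shared evenly by both zygote groups. B2 was at 2359 to 2632 in the 4 control and 2231 to 3719 in the 4 Kdm5b zygotes of strip 8, at 2122 to 4496 and 3354 to 3878 in strip 9, and at 2955 to 4420 and 3000 to 3337 in the 2 and 2 zygotes of strip 10, overlapping in each. On the gene scale control zygotes were the more variable group, with a coefficient of variation of 16.1% for the SINE sum against 7.82%. On the repeat total the spreads were closer, at 5.65 ± 0.594% in control and 5.65 ± 0.511% in Kdm5b zygotes. The difference in spread was not tested.

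With edgeR 0 of the 28 members were called in zygotes with repeat factors or gene factors, as were 0% of all 2616 repeats on either scale. No member had an unadjusted p under 0.05, and DESeq2 also called 0. The log2 fold changes ran from -0.05 (ID2) to 0.13 (B2_Mm1a) with repeat factors. B2_Mm1a had 923, 1395 and 1696 gene-scaled CPM in Kdm5b zygotes, within the range of 786 to 1888 in controls, and its SE of 0.13 was the second largest among the members after that of B2_Mm1t.

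In 2C embryos B2 was the family that passed the test with Kdm5b injection on the gene scale, and no family passed after adjustment on the repeat total. B2 summed to 6708, 9552 and 10133 gene-scaled CPM in the 6 Kdm5b samples and to 4079, 5212 and 8066 in the 9 controls. All 6 Kdm5b samples were above the control mean and 4 were above every control. The ratio was 1.55 (exact p = 0.0034, adjusted over the 6 families 0.0204). On the repeat total B2 was 1.67 ± 0.428% against 1.06 ± 0.340% (1.59-fold, exact p = 0.0116), which did not pass after adjustment (0.0587).

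The other families were 1.07-fold (PB1) to 1.15-fold (B3) higher in Kdm5b 2C embryos on the gene scale, and none passed after adjustment. On the repeat total B1 (1.18-fold, exact p = 0.037), B3 (1.18-fold, exact p = 0.0214) and ID (1.16-fold, exact p = 0.0392) had the same adjusted p as B2, 0.0587. On the gene scale B1 came nearest, with 7994 ± 533 against 6990 ± 813 gene-scaled CPM (1.15-fold, exact p = 0.0202, adjusted p = 0.0605). The ratio of B2 to B1 was 1.11 ± 0.160 in Kdm5b and 0.829 ± 0.178 in control 2C embryos (1.35-fold, exact p = 0.0106, adjusted over the 5 ratios 0.0529). All 6 Kdm5b samples were above the control mean, and 3 were above every control. B4 to B1 and ID to B1 were within the spread (0.952-fold and 0.981-fold, exact p = 0.336 and 0.688). SINE to MIR was 12.8 ± 0.552 in Kdm5b and 11.8 ± 0.807 in control 2C embryos (1.09-fold, exact p = 0.0224, adjusted p = 0.0559). SINE to LINE-1 was 1.14-fold higher (exact p = 0.0727, adjusted p = 0.121). Neither passed after adjustment. The sum of all members was 34052 ± 1930 against 28453 ± 3619 gene-scaled CPM (1.20-fold, exact p = 0.00659) and 6.34 ± 0.913% against 5.12 ± 0.726% of the repeat total (1.24-fold, exact p = 0.0166). With Kdm5b kept in the gene total, the difference of the sum was within the spread (log2 difference 0.08, exact p = 0.345), while that of B2 was 0.44 (exact p = 0.024).

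For single members, edgeR with repeat factors called 0 of 28 between Kdm5b and control 2C embryos, as it called 0% of all 2692 repeats. At an unadjusted p under 0.05 there were 5 members, namely the 3 of B2, B1_Mm and B1F2, all higher in Kdm5b samples, beside 6.61% of all repeats. DESeq2 called 1, B2_Mm1t (log2 fold change 0.70, SE 0.16, DESeq2 adjusted p = 0.0131). With gene factors 1 member was called, B2_Mm1t, and it was the only repeat called higher (0.0371%). The median log2 fold change was then 0.20 over the members and 0.10 over all repeats, against 0.10 and 0.00 with repeat factors.

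B2_Mm1t had 1886, 2814 and 3306 gene-scaled CPM in Kdm5b 2C embryos and 1136, 1444 and 2161 in controls (log2 fold change 0.81, SE 0.14, edgeR adjusted p = 0.0257 with gene factors). With repeat factors it was 0.70 (SE 0.15, edgeR adjusted p = 0.267). B2_Mm1a had 2889, 3798 and 4505 against 1595, 2154 and 3643 (log2 fold change 0.65, SE 0.14, edgeR adjusted p = 0.174 with gene factors). B2_Mm2 had 1856, 2573 and 3054 against 1349, 1646 and 2420 (log2 fold change 0.56, SE 0.13, edgeR adjusted p = 0.174 with gene factors). All 3 B2 members thus lay higher in Kdm5b samples with overlapping ranges, and 1 passed in this fit. With gene factors all 3 passed in one fit of all 35 samples (edgeR adjusted p = 0.0381 for B2_Mm1a, 0.0168 for B2_Mm1t and 0.035 for B2_Mm2) and with the index strip as a covariate (edgeR adjusted p = 0.0337, 0.0168 and 0.0436).

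Other settings lost the call of B2_Mm1t. It was lost on leaving out any one of control 2C replicates 2, 3, 4, 7, 8 and 9 or Kdm5b 2C replicates 1, 2, 3 and 5, that is 10 of the 15 samples (edgeR adjusted p from 0.00672 to 0.170 over the 15, log2 fold change 0.74 to 0.88). It was also lost in single intact embryos alone (adjusted p = 0.555, log2 fold change 0.83, SE 0.18) and with the replicate number as a block (adjusted p = 0.279). Plain gene totals lost it as well (edgeR adjusted p = 0.163, log2 fold change 0.75, SE 0.15). The B2 family sum on the gene scale lost its call with the replicate number as a block (log2 difference 0.58, exact p = 0.0625). That test kept only the 6 pairs with a number in both groups, and such pairs share only a number. The unadjusted exact p of the B2 sum stayed under 0.05 in single intact embryos (log2 difference 0.64, exact p = 0.0195). It also did among the 3 control and 5 Kdm5b samples whose index numbers fall in strip 11 (log2 difference 0.79, exact p = 0.0357). The same was so on leaving out each sample in turn (log2 difference 0.57 to 0.70, exact p at most 0.00849). Strip 12 held 6 controls, at 5018 to 8066 gene-scaled CPM, and 1 Kdm5b sample, at 10124.

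**Figure D4:**
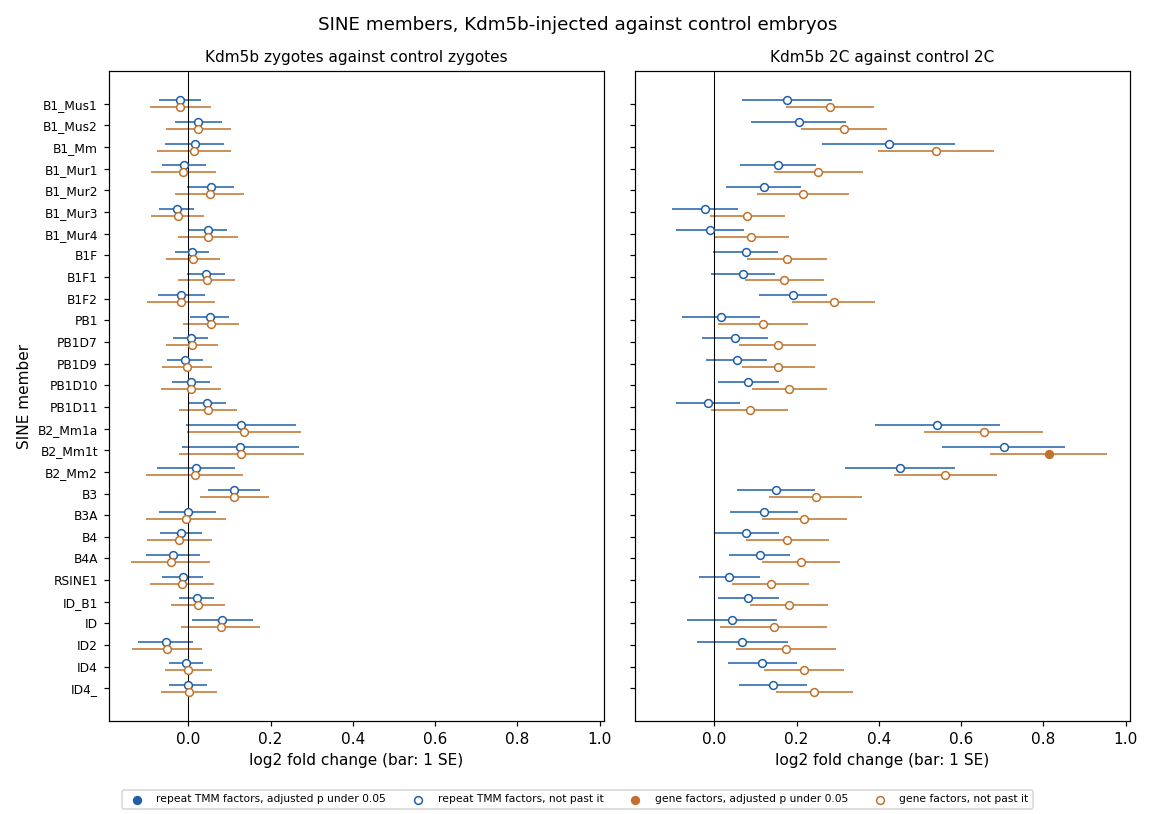
Log2 fold change of each of the 28 SINE members with Kdm5b injection (x axis; bars are 1 SE; edgeR) in zygotes on the left and 2C embryos on the right, with repeat factors in blue and gene factors in orange; filled points have an adjusted p under 0.05. Zygote values lie between -0.05 and 0.13, and in 2C embryos the 3 B2 members and B1_Mm lie furthest to the right, with B2_Mm1t at 0.81 on gene factors as the only filled point.

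Whether Kdm5b injection acted differently in zygotes and in 2C embryos was tested directly. With all 35 samples in one fit, edgeR called 0 of 28 members for the difference between the injection effect in 2C embryos and that in zygotes, and 0% of all 3065 repeats, with repeat factors and with gene factors. At an unadjusted p under 0.05 there were 3 members with repeat factors and 9 with gene factors, beside 6.66% and 6.88% of all repeats, and DESeq2 called 0. The 3 were B2_Mm1t (log2 difference 0.56, SE 0.22), B2_Mm2 (0.41, SE 0.17) and B1_Mm (0.39, SE 0.17), and their smallest adjusted p was 0.581. The larger B2 values in Kdm5b 2C embryos are therefore not shown to differ from the effect in zygotes.

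Bc1, the source gene of ID, had counts of 6 to 56 in control zygotes, 3 to 46 in Kdm5b zygotes, 4 to 110 in control 2C embryos and 28 to 334 in Kdm5b 2C embryos. From control zygotes to control 2C embryos it did not pass the test (log2 fold change 1.10, SE 0.52, edgeR adjusted p = 0.0805). It was higher in Kdm5b 2C embryos than in Kdm5b zygotes (log2 fold change 3.51, SE 0.50, edgeR adjusted p = 1.56e-06). Against control 2C embryos the log2 fold change was 2.09 (SE 0.60) with an edgeR adjusted p of 0.248, and the ranges overlapped. ID copies, summed, were at 808 to 1219 gene-scaled CPM in control 2C embryos and 1029 to 1221 in Kdm5b 2C embryos. The BC1_Mm repeat, which the name rule does not include, had counts of 979 to 1778 in control and 1289 to 1694 in Kdm5b 2C embryos. In zygotes its counts were 1427 to 2524 in controls and 1585 to 2330 with Kdm5b. Its gene-scaled CPM was 118 to 182 in Kdm5b zygotes and 125 to 160 in Kdm5b 2C embryos. The rise of the low-count Bc1 gene between these stages was therefore not seen in this repeat. The comparison of Bc1 between the 2C groups was singled out after its values were seen.

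Most other listed transcripts of RNA polymerase III rose between the stages, as did all 6 SINE families on the gene scale. A shared cause was not tested. Of 9 listed, 8 were tested and 6 were higher in control 2C embryos than in control zygotes and 0 lower, against 26.8% of all 11968 genes higher and 25.4% lower. The median log2 fold change was 1.32 over the list and 0.02 over all genes. Rpph1, the RNA of RNase P, rose by a log2 fold of 1.36 (SE 0.13, edgeR adjusted p = 5.32e-09) and Rn7sk, which holds back the elongation factor P-TEFb, by 1.28 (SE 0.14, edgeR adjusted p = 1.83e-08). In Kdm5b embryos the same comparison gave 6 of 8 higher and 0 lower, against 29.3% of genes higher and 29.5% lower.

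Of 31 genes tested for RNA polymerase III and its factors, 8 were higher and 12 lower in control 2C embryos than in control zygotes, beside 26.8% of all genes higher and 25.4% lower, with a median log2 fold change of 0.01. Brf2, the factor for promoters that lie upstream of a gene, fell by 1.66 on the log2 scale (SE 0.14, edgeR adjusted p = 7.63e-10), and Polr3a, the largest subunit, fell by 1.20 (SE 0.11, edgeR adjusted p = 1.16e-09). Subunits of TFIIIC, which binds the B box, did not move as one: Gtf3c2 rose by 0.56 (SE 0.07) and Gtf3c5 by 3.01 (SE 0.41), whereas Gtf3c1 fell by 0.40 (SE 0.12) and Gtf3c3 by 0.89 (SE 0.18), each past an edgeR adjusted p of 0.05. Maf1, the repressor of RNA polymerase III, rose by a log2 fold of 2.19 (SE 0.60) from 1.52 ± 1.34 TPM. In Kdm5b embryos 8 of the 31 were higher and 15 lower between the stages, beside 29.3% and 29.5% of all genes.

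Among 11 genes for proteins that bind SINE RNA, 3 were higher and 3 lower in control 2C embryos than in control zygotes, close to the 26.8% and 25.4% of all genes. Srp14 and Srp9, the pair that binds the 7SL Alu domain and B1 RNA, rose by log2 folds of 0.32 (SE 0.08) and 0.27 (SE 0.11). Ssb, the La protein that binds the ends of new RNA polymerase III transcripts, fell from 1885 ± 211 to 259 ± 140 TPM (log2 fold change -2.79, SE 0.21, edgeR adjusted p = 7.61e-11). Of 14 listed genes for proteins that bind or silence repeat chromatin, 13 were tested, with 5 higher and 4 lower beside the same shares. Dnmt1, the maintenance DNA methyltransferase, fell by 2.37 on the log2 scale (SE 0.16, edgeR adjusted p = 1.74e-11), and Suv39h1, an H3K9 methyltransferase, rose by 3.71 (SE 0.57, edgeR adjusted p = 5.34e-06) from 0.739 ± 0.652 TPM. In Kdm5b embryos the counts were 3 higher and 5 lower of 11, and 5 higher and 6 lower of 13, beside 29.3% of all genes higher and 29.5% lower.

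With Kdm5b injection edgeR called 0 genes of these 4 lists in zygotes, where 0.134% of all 11933 genes were called, and 0 in 2C embryos, where 0.0245% of 12244 were called. At an unadjusted p under 0.05 there were 4 of 30 RNA polymerase III genes and 3 of 11 SINE RNA-binding genes in zygotes, beside 10.3% of all genes. For the other lists there were 0 of 7 RNA polymerase III transcripts and 0 of 12 chromatin genes. In 2C embryos there were 3 of 31 RNA polymerase III genes, 1 of 8 RNA polymerase III transcripts, 2 of 11 SINE RNA-binding genes and 2 of 14 chromatin genes, beside 9.41% of all genes, and DESeq2 called 1, in the first of these lists. The lists' medians in 2C embryos were -0.16 for RNA polymerase III genes, 0.11 for its transcripts, -0.21 for SINE RNA-binding genes and -0.10 for chromatin genes, beside 0.00 over all genes.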

How the data were processed

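Gene counts were deposited as whole-number counts per gene: per the labels, the authors trimmed reads with fastp 0.21.0, aligned them with STAR 2.7.3a to GRCm38 and counted fragments with featureCounts 1.5.1, using strand. Repeat values were deposited by the authors as estimated counts from Salmon (SalmonTE), run on the RepeatMasker copies of each repeat joined together; its use of strand is not given in the sources used here. Copies of related subfamilies share sequence, so reads can be split among them, and family sums are less touched by this. The sums do not cover reads split between B1 or PB1 and the related 7SLRNA repeat, which lies outside them. That repeat was at 21087 ± 2485 gene-scaled CPM in control zygotes and 51812 ± 9771 in control 2C embryos. Its part in the B1 values was not tested. In the table, 5.04% of the values were not whole, and they were rounded.

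The members and gene lists were chosen with earlier results of these data known. Families were summed per sample and divided by the repeat total or by the gene total without Kdm5b. Family sums and ratios were compared by two-sided exact permutation tests of mean log2 values, adjusted by Benjamini-Hochberg over the families or ratios. The 18536 repeats and, of 24480 genes, all but Kdm5b entered edgeR 4.0.16 quasi-likelihood tests (filterByExpr with a minimum count of 10, TMM, Benjamini-Hochberg adjusted p under 0.05). The repeat test was checked on simulated data, with changes set in randomly drawn repeats. For Kdm5b against control 2C embryos it recovered 10.9% of log2 changes of 0.5 and 45.2% of those of 1. These rates are over repeats of all count levels that passed the filter. They were not computed for the SINE members, so they do not give the power for these. DESeq2 1.42.0 was an alternative. R 4.3.3 was used. Gene levels are in TPM, computed here from the deposited lengths, without Kdm5b. By rule, every member could be named, values per group were given for each family's most abundant member, and up to 4 genes per list and direction with the smallest p were named. Group values of B1_Mm, B2_Mm1t and B2_Mm2 and the genes Gtf3c1, Gtf3c3 and Maf1 were added after their values were seen. Strips are 8 consecutive index numbers, inferred from the labels. The p-values set group differences against the spread between these samples, which are embryos or pools of blastomeres. The mother of each embryo is not given, so the spread between mothers was not tested. Libraries differed beyond sampling noise in every pair of a group (chi-square per degree of freedom at least 13.2). Samples with the same replicate number did not deviate together (median correlation 0.02 for repeats between the 2C groups), so they share only a number. One related sequence is not reported here.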

Additional observations from a re-analysis of the deposited data

How the results depend on the processing

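Calls of SINE members between stages depended on the scaling. From control zygotes to control 2C embryos, 12 members were higher with TMM factors from repeats, 28 with gene factors, 25 with plain gene totals, 1 with plain repeat totals (16 lower), 7 without simple, low-complexity and structural RNA repeats (2 lower), 0 at a fold threshold of 1 on the log2 scale, 25 in single embryos with gene factors and 11 to 18 on leaving out each sample. From Kdm5b zygotes to Kdm5b 2C embryos, 23 were higher, against 6 with plain repeat totals (5 lower), 10 without simple, low-complexity and structural RNA repeats (3 lower), 15 with no filter and 4 at the fold threshold. Between the 2C groups 0 were higher, against 1 with gene factors, 1 with DESeq2, 1 with all samples in one fit, 1 with the index strip as a covariate, 3 with strip and gene factors together, 4 with no filter and 0 to 1 on leaving out each sample, the 1 being without control 2C replicate 5. The cause was not tested.

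On the log2 scale the summed SINE share in zygotes was 0.0027, -0.031 per gene fragment with Kdm5b kept, -0.019 without simple, low-complexity and structural RNA repeats, and -0.023 to 0.031 on leaving out each sample, never past the test. Between the 2C groups it was 0.31, but 0.084 per gene fragment with Kdm5b kept and 0.35 in strip 11 (exact p = 0.345 and 0.143). There B2 on the repeat total went from 0.67 to 0.72 (exact p = 0.0893) and B2 to B1 from 0.43 to 0.49 (exact p = 0.0714), with fewer samples. Between control stages the sum was -0.15 on the repeat total, 0.55 per gene fragment with or without Kdm5b and -0.19 to -0.12 on leaving out each sample, and B2 was 0.28 and 0.98. Between Kdm5b stages the sum was 0.16, against 0.77 per gene fragment, 0.66 with Kdm5b kept, 0.18 without simple, low-complexity and structural RNA repeats, 0.23 in single embryos and 0.12 to 0.23 on leaving out each sample.

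Replicate numbers did not pair the samples: correlations of same-numbered deviations ran from -0.16 to 0.16 over repeats and from -0.18 to 0.10 over genes, and over repeats 2 of 10 zygotes and 2 of 6 2C samples matched their own number best. With the replicate number as a block, 11 members were higher between control stages (26 with gene factors), 16 between Kdm5b stages, and 0 with injection. The block gave 0.27 for the SINE share between the 2C groups (exact p = 0.156), 0.58 for B2 on the repeat total (exact p = 0.156) and 0.58 per gene fragment (exact p = 0.0625). Among the alternative values of sums, ratios and B2 members, 373 kept their direction and side of the threshold, 21 lost the call, 18 gained one and 12 reversed. Among counts of member calls, 229 stayed within 1.5 times and 22 moved.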

Other observations

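Among the 6 Kdm5b 2C samples, those with less Kdm5b RNA had more B2 RNA. Kdm5b took 8.27, 9.09 and 9.39% of gene fragments in replicates 2, 5 and 3, where B2 was at 10127, 10124 and 10133 gene-scaled CPM. It took 13.2, 15.6 and 15.8% in replicates 1, 6 and 4, where B2 was at 8980, 7143 and 6708. The samples form separate clusters in Kdm5b share, so no correlation is given. This comparison was not planned. Replicate 6 is the pool of blastomeres, where the large-subunit rRNA repeat took 20.0% of repeat counts. In the 10 Kdm5b zygotes the same relation, the only one computed, did not pass the test (Pearson's r = 0.0601, permutation test p = 0.878, Spearman's rho = 0.176, permutation p = 0.633, and r = 0.337 without the 2 zygotes farthest from the median Kdm5b share).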
